A study of Mus musculus with 47 samples.

Results

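The hippocampus of old female C57BL/6 mice was examined 4 days after sepsis and set against that of old female control mice. The comparison holds 7 of the 47 libraries of the series, chosen by their labels, namely old female control replicates 1, 2, 3 and 4 and old female day 4 replicates 2, 4 and 7, each from a whole hippocampus of 1 mouse aged 18 to 22 months. The septic mice had undergone cecal ligation and puncture (the cecum is tied off and pierced, so that gut bacteria reach the abdomen). They then received an analgesic and antibiotics and were restrained daily on days 2 to 4, including 1 h before they were killed. Control mice were taken from the home cage with no surgery, anesthesia or restraint, so the effects of infection, operation, drugs and restraint cannot be told apart, and the day 4 group holds only mice that lived to that day. Testing covered every gene that averaged 5 CPM (read counts scaled to library size) or more over these 7 libraries, namely 11704 of the 28032 in the table.

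Several systems of the hippocampus are known to respond to systemic inflammation and stress. Glucocorticoids from the adrenal gland cross into the brain and bind the glucocorticoid receptor, encoded by Nr3c1, which then binds DNA at short palindromic elements and switches on genes such as Fkbp5, Sgk1 and Tsc22d3. Oligodendrocytes wrap axons in a membrane rich in the lipid galactosylceramide, microglia survey the tissue and express complement proteins, and the endothelium of brain vessels with its pericytes forms the blood-brain barrier. In a whole hippocampus all of these cells share 1 library, so fewer cells of a type and less RNA per cell cannot be told apart.

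The 7 libraries held between 19538320 and 23029246 reads in genes, and a single read was worth 0.0354 to 0.0427 CPM. The correlation of log2 values across genes was 0.977 to 0.992 among controls, 0.987 to 0.992 among day 4 libraries and 0.978 to 0.989 between the groups. Old female control replicates 1 and 2 stood apart from the other libraries on the leading principal component, which held 32% of the variance, and no library was removed. Control replicates 3 and 4 correlated slightly more with day 4 libraries (means 0.9844 and 0.9851) than with other controls (0.9833 and 0.984). On the next component (25.4%) day 4 replicate 2 lay at 2.81, within the controls (-3.65 to 14.2). Day 4 replicates 4 and 7 lay at -13.4 and -13.1. Markers of hippocampal subfields summed to 2065 to 2302 CPM in controls and 2219 to 2390 CPM on day 4, whereas markers of neighbouring regions summed to 429 to 527 and 458 to 466 CPM. The choroid plexus gene Ttr was at 1801 CPM in control replicate 3 and 1792 CPM in day 4 replicate 2 but between 4.52 and 47.2 CPM in the others, and the 9 tested choroid plexus markers did not separate the groups. The haemoglobin gene Hbb-bs ranged from 55.2 to 158 CPM in controls and from 15.5 to 408 CPM on day 4.

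On day 4 a small set of glucocorticoid-responsive genes was higher than in controls, led by Plin4, Hif3a and Sgk1. Genes of oligodendrocytes, among them Ugt8a and Opalin, the protease Klk6, complement C4b and the glucocorticoid receptor were lower than in controls. A gene was called when its unadjusted p from limma, a moderated linear model fitted across all genes on log2(CPM + 1), was below 0.01, the threshold of the study. By this rule 290 genes were higher (2.48% of those tested) and 278 were lower (2.38%), where 117 in all would pass by chance. After Benjamini-Hochberg adjustment over all 11704 genes, 42 remained below 0.05, of which 18 were higher and 24 lower. The changes were small. The median absolute log2 fold change of the called genes was 0.37, and 13 of them lay beyond 1 in either direction. In 530 of the 568 called genes the 3 day 4 libraries did not overlap the 4 controls, as in 1691 genes overall (14.4%). The counts depended on single libraries: without day 4 replicate 4 they were 75 higher and 133 lower, without day 4 replicate 7 168 and 156, and without control replicate 1 123 and 135. The number with an adjusted p below 0.05 fell from 42 to 3 without control replicate 1, 6 without control replicate 3, 4 without day 4 replicate 2 or day 4 replicate 4, and 2 without day 4 replicate 7, and was 67 without control replicate 2 and 75 without control replicate 4. At the unadjusted p, all 42 genes were called in each of the 7 fits. In 24 of the 568 called genes, and in 6 of the 42 (Adra1a, Aldh1l2, Hif3a, Klk6, Plin4 and Serpinb1a), 1 group averaged below 5 CPM, against 183 of all tested genes. For all 6 of these genes, Plin4 included, the mean over the 7 libraries passed the filter only through the group in which they were high. Of the called genes 51.1% were higher, and this split was 33.0% after scaling by the median of ratios, 32.6% after a correction for GC content and 34.4% after a correction for transcript length. Genes called higher had shorter transcripts (median 2232 bases) and a higher GC content (55.5%) than genes called lower (5401 bases and 47.6%), against 3581 bases and 50% over all tested genes.

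**Figure D1:**
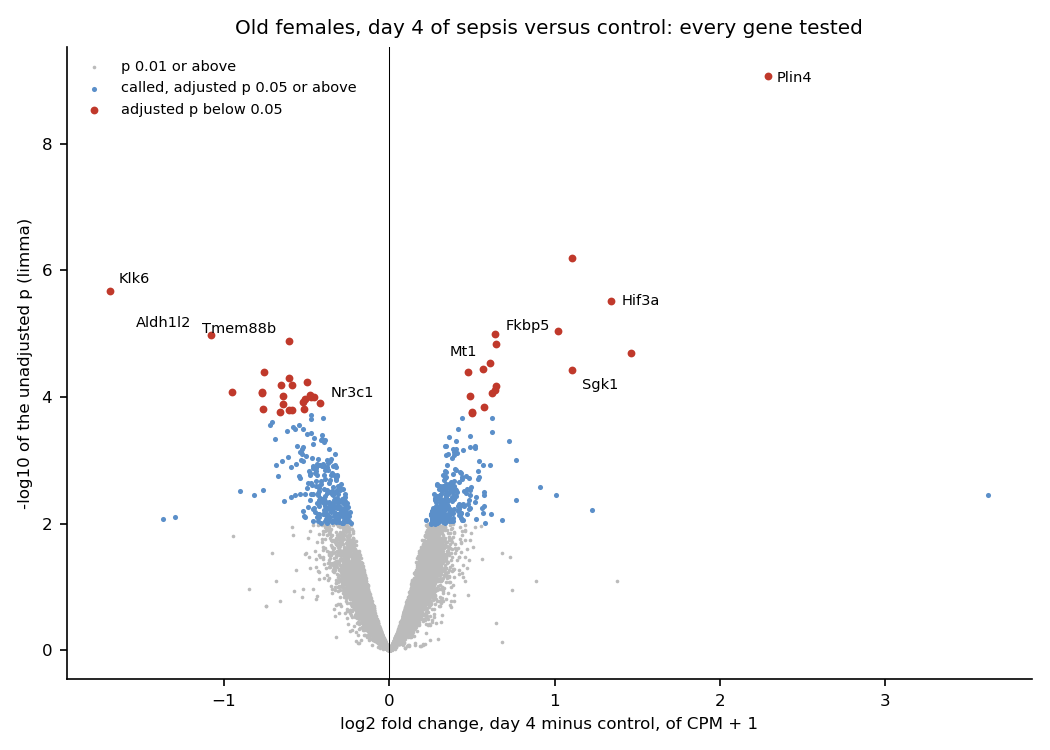
Log2 fold change of CPM + 1 between old females on day 4 and old female controls (horizontal axis) against the negative log10 of the unadjusted limma p (vertical axis) for each of the 11704 genes tested. Grey points were not called, the 568 called genes are in blue or red, and red marks the 42 with an adjusted p below 0.05; Plin4 lies apart from all others and most called genes lie within 1 of 0.

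Plin4 (chr17:56100591-56109803 of mm10, minus strand), which encodes a coat protein of lipid droplets and is induced by glucocorticoids in many tissues, showed the lowest p of all genes. It measured 5.27, 4.81, 5.47 and 3.60 CPM in control replicates 1 to 4 and 29.3, 26.4 and 25.7 CPM in day 4 replicates 2, 4 and 7. Every day 4 mouse was far above every control. The log2 fold change was 2.29 (SE 0.13, adjusted p = 9.83e-06, where SE is the standard error). Hif3a (chr7:17031507-17062427, minus strand), which encodes an alpha subunit of the hypoxia-inducible factors, was at 2.48, 3.56, 2.05 and 3.34 CPM in the controls and 8.5, 7.98 and 9.55 CPM on day 4. The groups again did not overlap, and the log2 fold change was 1.34 (SE 0.16, adjusted p = 0.00899). Plin4 and Hif3a passed the filter of 5 CPM only through the day 4 libraries. Sgk1 (chr10:21882184-21999903, plus strand), the serum- and glucocorticoid-regulated kinase, was at 47.8, 51.2, 46.4 and 54.9 CPM in controls and 129, 73.2 and 135 CPM on day 4. Day 4 replicate 4 had the smallest rise of Sgk1 but still lay above all controls, and the log2 fold change was 1.11 (SE 0.17, adjusted p = 0.0315). Fkbp5 (chr17:28399094-28517527, minus strand), a co-chaperone that lowers the affinity of the receptor for its hormone, was at 57.3, 60.9, 50.7 and 55.3 CPM in controls and 93.9, 87.9 and 81.6 CPM on day 4, with a log2 fold change of 0.64 (SE 0.09, adjusted p = 0.0176).

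Of the 18 glucocorticoid-response genes that the study had named because they rose on day 1 in every age and sex group, 11 were called higher on day 4 and none lower, against 2.48% and 2.38% of all genes. Their median log2 fold change was 0.38, where that of all genes was 0.04. Of the 18, 17 lay above 0, as did 60.1% of all genes. The old female part of that choice rested on other mice, taken on day 1, and on the same controls, so the list is not independent evidence of its direction. Summed over the list, the controls ranged from 923 to 1010 CPM and the day 4 mice from 1281 to 1385 CPM. The called members included the transcription factor Klf15 (log2 fold change 0.38, adjusted p = 0.0965), the leucine zipper protein gene Tsc22d3 (0.62, adjusted p = 0.0748), the sulfotransferase Sult1a1 (0.73, adjusted p = 0.0863) and Wipf3 (0.49, adjusted p = 0.0394). Nfkbia, which encodes the inhibitor of NF-kappaB, was at 12.4 to 13.5 CPM in controls and 17.4 to 22.5 CPM on day 4 (0.57, adjusted p = 0.0482). Among the 7 members that were not called were Cdkn1a (0.44, adjusted p = 0.233), Ddit4 (0.37), Klf9 (0.12), Sesn1 (0.13) and Pdk4 (-0.29). The number called was 7 without day 4 replicate 2, without day 4 replicate 7 or with the length correction, and 6 with the replicate block.

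A further 22 glucocorticoid targets were listed from general knowledge, of which 18 passed the filter on low values. Earlier results of these data were known when the list was made, so it is not independent evidence either. The list summed to 2095 to 2395 CPM in controls and 2650 to 2725 CPM on day 4. Of the 18 tested, 7 were called higher and none lower, against 2.48% and 2.38% of all genes. The median of the 18 was 0.29, and 3 were called with all 47 libraries in 1 fit. Plin4 and Hif3a, which are among the 7, passed the filter only through the day 4 libraries. The count and the median therefore depend in part on their rise. Besides Plin4 and Hif3a the genes called in the main fit included Mt1, a metallothionein that binds zinc and copper. It was at 148, 124, 141 and 138 CPM in controls and 220, 186 and 208 CPM on day 4. The lowest day 4 value of Mt1 exceeded the highest control, with a log2 fold change of 0.57 (SE 0.09, adjusted p = 0.0315). Its neighbour Mt2 changed by the same 0.57 (adjusted p = 0.119), although the antisense Gm45774 covers 73.5% of its exon bases and no source used here says if the counting used strand. Fam107a, an actin-associated stress gene of astrocytes and neurons, was at 356 to 371 CPM in the controls and 484 to 534 CPM on day 4 (0.48, adjusted p = 0.0315).

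The promoters of 3 of these genes are printed because each contains the core of the glucocorticoid response element, GAACANNNTGT, on either strand. The windows run from 250 bases before to 50 bases after a RefSeq start site in GRCm38.p6 and are given 5′ to 3′ on the strand of the gene, with the matched bases in capitals. The windows are chr10:21993640-21993939 (plus strand) for Sgk1, chr8:94178839-94179138 (plus strand) for Mt1 and chr14:8309730-8310029 (minus strand) for Fam107a.
Sgk1: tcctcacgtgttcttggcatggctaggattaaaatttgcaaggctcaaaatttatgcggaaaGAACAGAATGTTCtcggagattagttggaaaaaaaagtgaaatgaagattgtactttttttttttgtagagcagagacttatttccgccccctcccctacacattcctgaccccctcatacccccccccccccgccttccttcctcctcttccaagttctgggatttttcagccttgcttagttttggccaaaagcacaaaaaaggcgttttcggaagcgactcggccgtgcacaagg
Mt1: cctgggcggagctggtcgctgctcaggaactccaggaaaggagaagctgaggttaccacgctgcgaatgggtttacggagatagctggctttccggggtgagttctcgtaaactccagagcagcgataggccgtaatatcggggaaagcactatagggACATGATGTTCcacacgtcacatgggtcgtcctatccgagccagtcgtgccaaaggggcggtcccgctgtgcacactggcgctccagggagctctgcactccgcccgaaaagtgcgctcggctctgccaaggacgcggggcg
Fam107a: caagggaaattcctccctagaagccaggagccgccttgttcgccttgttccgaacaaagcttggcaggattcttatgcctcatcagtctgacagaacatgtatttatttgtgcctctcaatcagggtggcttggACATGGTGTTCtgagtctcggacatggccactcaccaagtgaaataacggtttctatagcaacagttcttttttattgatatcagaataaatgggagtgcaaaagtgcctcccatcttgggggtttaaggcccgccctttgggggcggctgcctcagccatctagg
In Sgk1 the element is the full palindrome GAACANNNTGTTC, so both strands match and the matches overlap. The core was found in 4 of the 37 glucocorticoid genes of both lists that had a promoter window, the fourth being Map3k6, and in 319 of all 32851 windows (0.971%). Among tested genes it was in 65 of 8744 (0.743%), among those called higher in 5 of 215 (2.33%) and among those called lower in 0 of 204. These are matches of letters within 300 bases, and elements further away were not searched.

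**Figure D2:**
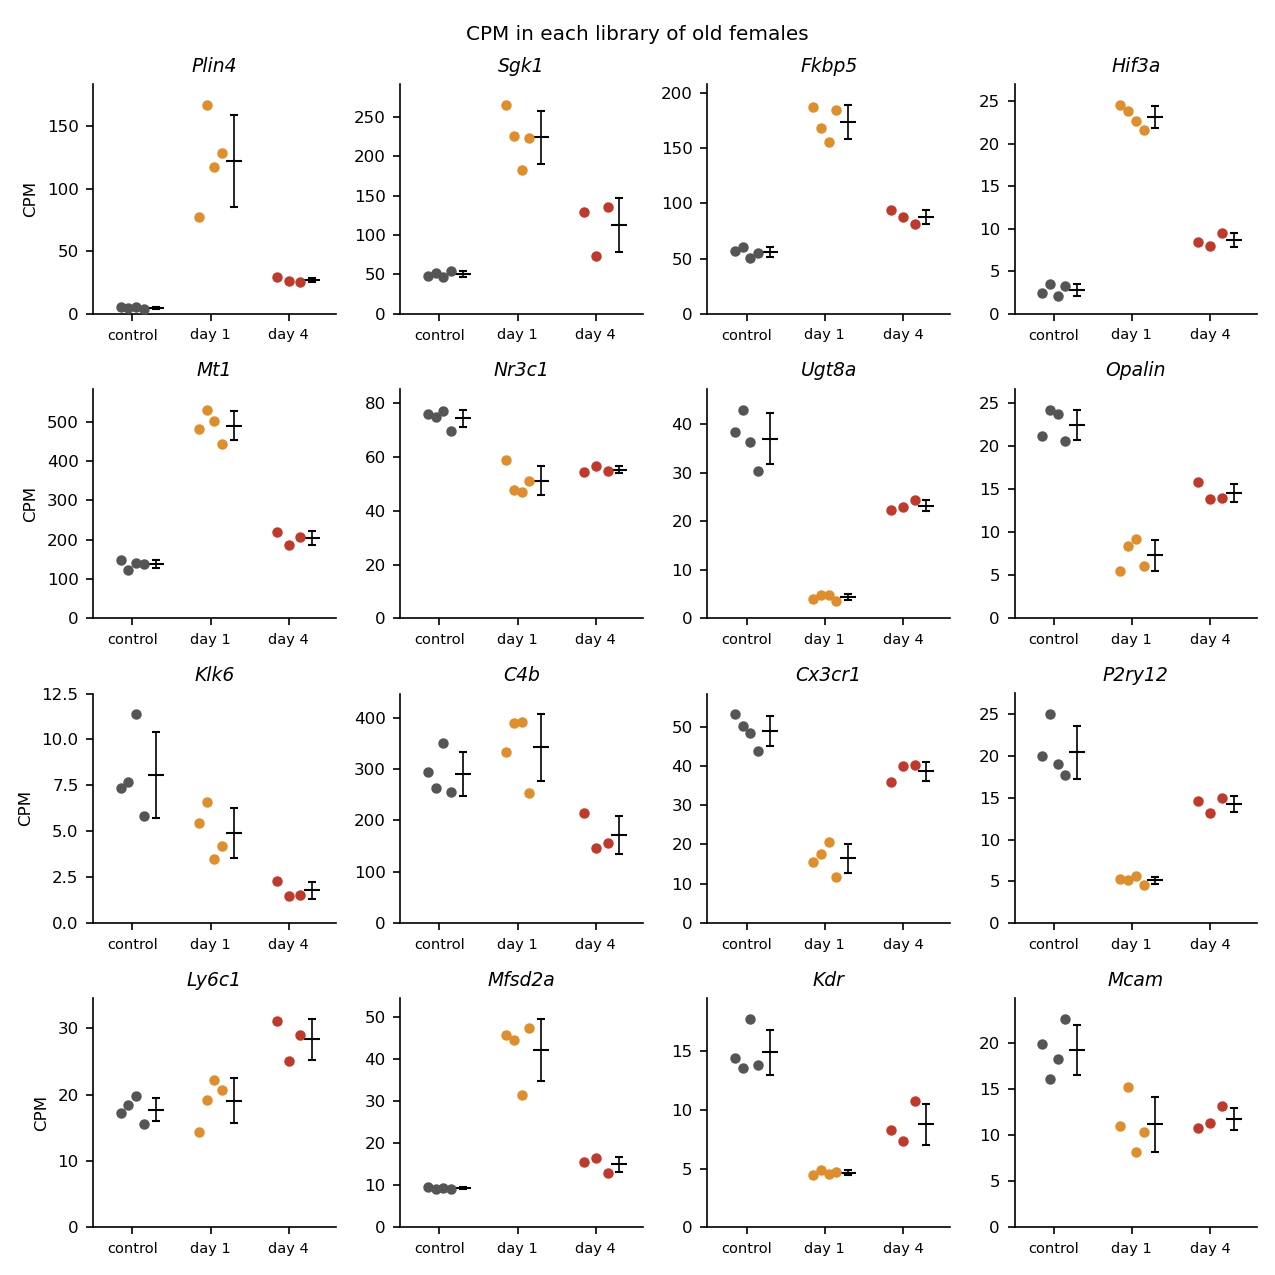
CPM of 16 genes in each library of old female mice (points) in controls (n = 4), on day 1 (n = 4) and on day 4 (n = 3), with group means and SD. Plin4, Sgk1, Fkbp5, Hif3a and Mt1 lie between their control and day 1 levels on day 4, whereas Klk6 and C4b are lower on day 4 than in both other groups.

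Nr3c1 itself was lower on day 4. It was at 75.7, 74.7, 76.9 and 69.6 CPM in controls and 54.4, 56.6 and 54.7 CPM on day 4. All 3 day 4 mice were within a narrow range below every control, and the log2 fold change was -0.42 (SE 0.07, adjusted p = 0.0439). It was the only called member among the 16 tested steroid receptors and stress peptides, whose median was -0.09, where 2.38% of all genes were called lower. The mineralocorticoid receptor gene Nr3c2, which binds the same hormone with higher affinity, ranged from 136 to 161 CPM in controls and from 121 to 135 CPM on day 4 (-0.19, adjusted p = 0.31) and was not called.

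Genes of lipid droplets and fasting moved in both directions. Of 41 tested, 4 were called higher (Plin4, Pnpla2, Cidea and Klf15) and 2 lower (Fabp7 and Sesn3), against 2.48% and 2.38% of all genes. The median was 0.06. Cidea, which promotes the growth of lipid droplets, was at 4.10 to 4.87 CPM in controls and 6.30 to 7.17 CPM on day 4 (0.54, adjusted p = 0.115). Plin4 and Cidea passed the filter of 5 CPM only through the day 4 libraries, so the count called higher rests in part on that filter. Pnpla2, the adipose triglyceride lipase, was at 11.6 to 14.9 CPM in controls and 16.3 to 18.0 CPM on day 4 (0.38, adjusted p = 0.169). Its call was lost without control replicate 1 (0.37), day 4 replicate 2 (0.36) or day 4 replicate 7 (0.35). Fabp7, a fatty acid binding protein of astrocytes and progenitors, fell from 8.62 to 10.4 CPM in controls to 5.96 to 7.05 CPM (-0.53, adjusted p = 0.0965). A separate list held 32 tested genes of lipid synthesis and desaturation, with a median of -0.02. Of these, 1 was called higher (Dgat2) and 3 lower (Gpam, Elovl5 and Ugt8a), against 2.48% and 2.38% of all genes. Dgat2, which makes triglycerides, changed by 0.34 (adjusted p = 0.141), but was not called without day 4 replicate 4 (0.28, adjusted p = 0.574). Gpam was not called without day 4 replicate 2 (-0.28), and Elovl5 not without control replicate 1 or day 4 replicate 4 or 7.

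A share of the oligodendrocyte genes was lower on day 4. Of the 47 tested, 15 were called lower (2.38% of all genes were) and none higher. The median was -0.23, and 4 lay above 0, where 60.1% of all genes did. The summed level overlapped between the groups, at 10363 to 12742 CPM in controls and 9767 to 10644 CPM on day 4. Ugt8a (chr3:125865271-125938619, minus strand), the enzyme that makes galactosylceramide, was at 38.4, 42.9, 36.3 and 30.2 CPM in controls and 22.2, 22.9 and 24.4 CPM on day 4. No day 4 value reached the lowest control, and the log2 fold change was -0.64 (SE 0.11, adjusted p = 0.0394). Opalin, a membrane protein of mature oligodendrocytes, was at 21.2, 24.2, 23.8 and 20.7 CPM in controls and 15.8, 13.9 and 14.04 CPM on day 4 (-0.59, adjusted p = 0.0394), also without overlap. Tmem88b, a membrane protein gene enriched in the same cells, was at 55.5 to 63.8 CPM in controls and 36.8 to 42.2 CPM on day 4 (-0.60, adjusted p = 0.0191). Plasmolipin (Pllp) had a log2 fold change of -0.46 (adjusted p = 0.0394), and the antisense Gm45767 covers 54.2% of its exon bases.

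Other myelin-related genes that fell were the carbonic anhydrase Car2 (-0.47, adjusted p = 0.0545), the connexins Gjb1 (-0.52, adjusted p = 0.0938) and Gjc3 (-0.43, adjusted p = 0.115), transferrin (Trf, -0.54, adjusted p = 0.0646) and Enpp6 (-0.69, adjusted p = 0.119), a choline phosphodiesterase of newly formed oligodendrocytes. Trf shares 63.5% of its exon bases with the annotation Gm20425. Several abundant structural genes were not called. Mbp ranged from 2190 to 2830 CPM in controls and from 1990 to 2230 CPM on day 4 (-0.20, adjusted p = 0.414), Mag changed by -0.29 (adjusted p = 0.253) and Mobp by -0.01 (adjusted p = 0.979). The lineage transcription factors Sox10 (-0.17), Olig1 (-0.01) and Olig2 (-0.07) were not called either. The number of called members was 11 to 19 when libraries were left out in turn, 26 after correction for GC content, 22 after correction for transcript length, 10 with the unmoderated F test, and 5 with the replicate block, where 9 of the 47 lay above 0. Of 15 tested genes of oligodendrocyte precursors, Sox6 alone was called (-0.39, adjusted p = 0.142), where 2.38% of all genes were called lower. Its call was lost without day 4 replicate 2 (-0.34), and Pdgfra changed by -0.16 (adjusted p = 0.42).

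Klk6 (chr7:43824499-43832030, plus strand), a secreted serine protease of oligodendrocytes that can cleave myelin proteins, showed the largest decrease among genes with an adjusted p below 0.05. It was at 7.38, 7.66, 11.4 and 5.81 CPM in controls and 2.30, 1.47 and 1.55 CPM on day 4. The groups were well separated, and the log2 fold change was -1.69 (SE 0.20, adjusted p = 0.00832). Serpinb1a, an inhibitor of serine proteases, was at 5.73 to 7.53 CPM in controls and 3.37 to 3.81 CPM on day 4 (-0.77, adjusted p = 0.0394). Aldh1l2, a mitochondrial enzyme of folate metabolism, was at 7.38, 8.76, 6.24 and 6.45 CPM in controls and 3.08, 3.12 and 2.42 CPM on day 4 (-1.08, adjusted p = 0.0176), and an antisense gene covers 14.1% of its exon bases. Klk6, Serpinb1a and Aldh1l2 each passed the filter on low values only through the controls.

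The 27 neurogenesis genes that the study printed for day 1 had a median of -0.27 on day 4. Of these, 10 were called lower and none higher, against 2.38% and 2.48% of all genes. All 27 had been lower on day 1 in every age and sex group. In old females this rested on other mice set against the same controls, so their direction is not independent. Their sums were 3612 to 4038 CPM in controls and 3279 to 3434 CPM on day 4. The called members included the receptors Fgfr2 (-0.40, adjusted p = 0.119), Unc5b (-0.44, adjusted p = 0.119), Lrp4 (-0.39, adjusted p = 0.126) and Kdr, together with Ugt8a and P2ry12. Several of these are genes of glia or vessels rather than of newborn neurons. The number was 6 without day 4 replicate 4, 18 after correction for GC content and 3 with the replicate block. A separate list of 24 tested genes of immature neurons and progenitors had a median of 0.07, with Marcksl1 called higher (0.29) and Nes called lower. Nes, which encodes the intermediate filament nestin of progenitors and vessels, was at 13.1, 10.8, 13.1 and 9.93 CPM in controls and 5.42, 7.30 and 7.51 CPM on day 4 (-0.72, adjusted p = 0.0646). Marcksl1 was not called without control replicate 1, control replicate 4 or any of the 3 day 4 replicates. Doublecortin (Dcx), a marker of immature neurons, ranged from 7.22 to 9.03 CPM in controls and from 7.45 to 8.76 CPM on day 4 (-0.03, adjusted p = 0.931).

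A few markers of microglia were called, in both directions. Of 26 homeostatic markers tested, 4 were called lower and 2 higher, against 2.38% and 2.48% of all genes, with a median of -0.14. Cx3cr1, the receptor for fractalkine, was at 53.2, 50.3, 48.4 and 43.9 CPM in controls and 35.9, 39.9 and 40.3 CPM on day 4. The log2 fold change was -0.33 (adjusted p = 0.166), and it was not called without control replicate 1 (-0.29, adjusted p = 0.471) or day 4 replicate 2 (-0.28, adjusted p = 0.29). P2ry12, a purinergic receptor of surveying microglia, was at 20.02, 25.02, 19.1 and 17.7 CPM in controls and 14.7, 13.2 and 15.02 CPM on day 4 (-0.48, adjusted p = 0.136), and lost its call without day 4 replicate 4 (-0.43, adjusted p = 0.549). Both genes lay below all controls in each day 4 mouse, whereas Tmem119 (0.03, adjusted p = 0.925) and Csf1r (-0.14) overlapped between the groups. The higher members were Sparc, a matricellular protein also made by astrocytes and vessels, at 168 to 200 CPM in controls and 242 to 264 CPM on day 4 (0.42, adjusted p = 0.0693), and the engulfment receptor Mertk (0.28, adjusted p = 0.188), which kept its call only without control replicate 2 when single libraries were left out. The number called lower was 1 without control replicate 1, day 4 replicate 2 or day 4 replicate 4, 2 without control replicate 3, and 0 without control replicates 1 and 2 together.

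Of 30 tested genes of microglial activation and complement, 4 were called lower (C4b, Ctss, Lyz2 and Cd9) and none higher. Over all genes 2.38% were called lower and 2.48% higher, and the median of the list was -0.20. C4b (chr17:34728380-34743882, minus strand), a complement component that in brain is made largely by astrocytes and oligodendrocytes, was at 295, 264, 351 and 255 CPM in controls and 215, 146 and 156 CPM on day 4. All day 4 values were below the lowest control, with a log2 fold change of -0.76 (SE 0.14, adjusted p = 0.0486). It shares 34.6% of its 50-base sequences with C4a, so reads may have been split between the copies. Cd9, a tetraspanin, changed by -0.50 (adjusted p = 0.107). The complement genes C1qa (0.01, adjusted p = 0.988) and C1qb (0.02, adjusted p = 0.933) and the receptor Trem2 (-0.08, adjusted p = 0.739) were not called. Lyz2 was not called without day 4 replicate 2 (-0.74) or day 4 replicate 4 (-0.60), nor was Ctss without control replicate 1 (-0.31), control replicate 3 (-0.32), day 4 replicate 2 (-0.35) or day 4 replicate 4 (-0.29). The number called lower was 10 without control replicate 4, 8 after correction for GC content or for transcript length, 2 without day 4 replicate 2 or day 4 replicate 4 and with the replicate block, and 1 with the unmoderated F test.

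Of 36 astrocyte markers tested, 3 were called lower (Aqp4, Ednrb and Fabp7) and 1 higher (Gjb6), against 2.38% and 2.48% of all genes. The median was -0.08, and 15 lay above 0, where 60.1% of all genes did. The number called lower was 8 without control replicate 4 and 10 after correction for GC content, with 11 and 12 of the 36 above 0, 2 without control replicate 1, control replicate 2 or any 1 day 4 replicate, and 1 with the replicate block. Ednrb, an endothelin receptor, changed by -0.46 (adjusted p = 0.184) and kept its call only without control replicate 4 when single libraries were left out. Aqp4, the water channel of astrocyte end feet, was at 87.9, 103, 89.5 and 61.3 CPM in controls and 53.3, 53.5 and 59.0 CPM on day 4. The groups did not overlap, although control replicate 4 was close to day 4, and the log2 fold change was -0.60 (SE 0.14, adjusted p = 0.122). Megf10, an engulfment receptor of astrocytes, was at 23.1 to 26.7 CPM in controls and 16.5 to 18.7 CPM on day 4 (-0.52, adjusted p = 0.0437). Among 19 reactive astrocyte genes 2 were called higher, namely Fkbp5, given above, and Amigo2 (0.38, adjusted p = 0.197), and 2 lower, namely S1pr3 (-0.57, adjusted p = 0.167) and Gfap (-0.43, adjusted p = 0.175). Amigo2 was not called without control replicate 3 or 4 or day 4 replicate 2 or 4, and S1pr3 not without control replicate 1 or 3 or day 4 replicate 4 or 7. Gfap, the intermediate filament of astrocytes, was not called without control replicate 3 (-0.34), day 4 replicate 4 (-0.46) or day 4 replicate 7 (-0.31). Gjb6 was called at 0.35, and not without day 4 replicate 2 (0.32) or day 4 replicate 7 (0.36).

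Genes of the vessel wall split into a raised and a lowered group. Of 34 endothelial and blood-brain barrier genes, 5 were called higher (Ly6a, Ly6c1, Mfsd2a, Slc2a1 and Vwf) and 5 lower (Abcb1a, Flt1, Kdr, Tek and Tjp1). Over all genes 2.48% were called higher and 2.38% lower, and the median of the list was -0.14. Ly6c1, a surface protein of brain capillaries, was at 17.2, 18.5, 19.8 and 15.6 CPM in controls and 31.1, 25.03 and 29.0 CPM on day 4. All day 4 mice lay above all controls, and the log2 fold change was 0.65 (SE 0.11, adjusted p = 0.0394). Its related gene Ly6a was at 13.2 to 15.9 CPM in controls and 32.6, 17.2 and 28.6 CPM on day 4 (0.77, adjusted p = 0.115), with day 4 replicate 4 just above the controls. Ly6c1 shares 32.8% of its 50-base sequences with Ly6c2 and Ly6a shares 19.0% with Ly6c1. Mfsd2a (chr4:122946850-122961188, minus strand), the transporter that carries lysophospholipid with docosahexaenoic acid across the barrier, was at 9.67, 9.15, 9.45 and 9.18 CPM in controls and 15.6, 16.5 and 13.02 CPM on day 4 (0.62, adjusted p = 0.0394). Slc2a1, the glucose transporter of the barrier, was at 49.8 to 65.2 CPM in controls and 71.3 to 78.4 CPM on day 4 (0.40, adjusted p = 0.125). Von Willebrand factor (Vwf) had a log2 fold change of 0.91 (adjusted p = 0.159) with overlap, since control replicate 3 at 34.1 CPM exceeded day 4 replicate 4 at 28.2 CPM, and it was not called without day 4 replicate 2 (0.79) or day 4 replicate 7 (0.80).

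Of the 5 endothelial genes called lower, Kdr, Flt1 and Tek encode growth factor receptors, and they were set together after their values were seen. Kdr, the receptor for vascular endothelial growth factor, was at 14.5, 13.6, 17.8 and 13.9 CPM in controls and 8.29, 7.34 and 10.8 CPM on day 4. Its log2 fold change was -0.71 (SE 0.14, adjusted p = 0.0612), without overlap. Flt1 changed by -0.31 and Tek, the angiopoietin receptor, by -0.45, both called. Flt1 was not called without control replicate 1 (-0.30), control replicate 3 (-0.29) or day 4 replicate 4 (-0.24), and Tek was not called without control replicate 2 (-0.43), control replicate 3 (-0.42), day 4 replicate 2 (-0.40) or day 4 replicate 4 (-0.35). The tight junction gene Tjp1 changed by -0.35 (adjusted p = 0.133), and by -0.29 without day 4 replicate 4, where it was not called. With single libraries left out the number called lower was 1 without day 4 replicate 4, 2 without control replicate 3, and 3 without control replicate 1 or day 4 replicate 2.

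Mural cells are pericytes and smooth muscle cells around the vessels. Of 11 tested markers, 3 were called lower and none higher, against 2.38% and 2.48% of all genes, with a median of -0.23. The list summed to 246 to 276 CPM in controls and 214 to 217 CPM on day 4, without overlap. Mcam, an adhesion molecule of these cells, was at 19.9, 16.1, 18.3 and 22.6 CPM in controls and 10.8, 11.3 and 13.1 CPM on day 4 (-0.66, adjusted p = 0.049). Atp13a5, a pericyte marker, was at 6.56 to 8.17 CPM in controls and 4.74 to 5.10 CPM on day 4 (-0.52, adjusted p = 0.115). Its day 4 mean was 4.98 CPM, so this member of the 3 passed the filter on low values only through the controls. Pdgfrb was called at -0.39, and not without control replicate 1 (-0.38), control replicate 3 (-0.36), day 4 replicate 2 (-0.37) or day 4 replicate 7 (-0.36). The number called lower was 5 without control replicate 2, 6 after correction for GC content, 1 with the replicate block and 2 without control replicate 1, control replicate 3, day 4 replicate 2 or day 4 replicate 7. Markers of mural cells moved with Kdr, Flt1 and Tek, and their part in those results was not tested.

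**Figure D3:**
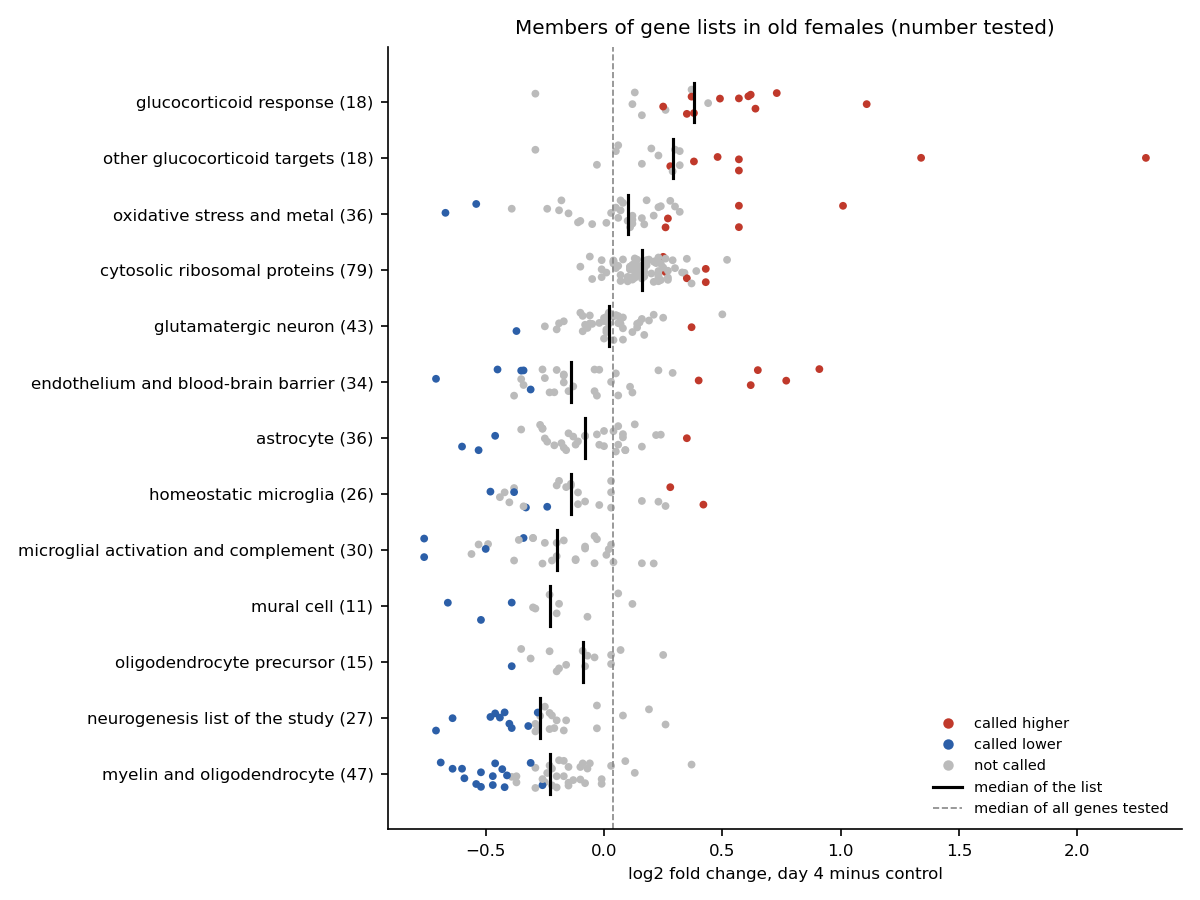
Log2 fold change, day 4 minus control, of each tested member of 13 gene lists in old females (points), coloured by whether the member was called, with the median of each list (black line) and of all genes tested (dashed line, 0.04). The glucocorticoid lists lie to the right of 0, and the myelin, neurogenesis and mural cell lists to the left.

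Genes of neurons and synapses were mostly unmoved at the level of the lists. Of 43 tested glutamatergic genes, Neurod2 was the only gene called higher (0.37), and the median was 0.02. Over all genes 2.48% were called higher and 2.38% lower. Neurod2 was not called without control replicate 1 (0.32), day 4 replicate 2 (0.29) or day 4 replicate 4 (0.34). Of 26 interneuron genes, the GABA-A receptor subunit Gabrb2 alone was called, at 58.0 to 70.4 CPM in controls and 43.4 to 49.5 CPM on day 4 (-0.47, adjusted p = 0.0517), and the median was 0.00. Of 30 immediate early genes, Dusp5 (0.54, adjusted p = 0.138) and Arl4d were called higher, whereas Fos (-0.71, adjusted p = 0.287) and Arc (0.04, adjusted p = 0.961) were not called and varied widely among mice, Arc from 47.6 to 109 CPM in controls and from 56.3 to 136 CPM on day 4. Dusp5 was not called without day 4 replicate 2 or day 4 replicate 4, and Arl4d not without control replicate 1 or 2 or day 4 replicate 2 or 7.

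Single neuronal genes were nevertheless among the 42 with an adjusted p below 0.05. On the higher side stood Rasd1, a small G protein named for its induction by dexamethasone, at 30.7 to 38.4 CPM in controls and 49.4 to 52.4 CPM on day 4 (0.61, adjusted p = 0.0307), Lingo3 (0.65, adjusted p = 0.0192), Rprml (0.64, adjusted p = 0.0394), Cpne7 (0.50, adjusted p = 0.0491) and the potassium channel subunit Kcng2 (0.50, adjusted p = 0.049). Pcdhgc4, a clustered protocadherin whose exons are shared with its neighbours, changed by 1.47 (adjusted p = 0.0239) from 18.3 to 34.9 CPM in controls to 54.6 to 93.8 CPM on day 4, and is uncertain for that reason. On the lower side stood the axon guidance genes Dcc (-0.61, adjusted p = 0.0486) and Sema6d (-0.47, adjusted p = 0.0394), the adrenergic receptor Adra1a (-0.65, adjusted p = 0.045), Stxbp5l, which acts in vesicle release (-0.51, adjusted p = 0.0486), and the auxiliary subunit of GABA-B receptors Kctd16 (-0.77, adjusted p = 0.0394). Sema6d was at 88.6 to 92.8 CPM in controls and 58.6 to 69.8 CPM on day 4. The pseudogenes Gm14150 (1.11) and Gm7328 (-0.95) are uncertain, since 71.4% and 95.4% of their 50-base sequences occur in Tuba1b and Grin2a. The rest of the lower genes comprised Lnpep (-0.76), Adamtsl4 (-0.66), Hipk2 (-0.61), Map2k6 (-0.59), Igfbp5 (-0.51), Plekhh1 (-0.50) and Sash1 (-0.48), and the remaining higher gene was Gm19439 (1.02).

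Among 36 genes of oxidative stress and metal handling, 5 were called higher (Mt1, Mt2, Gpx1, Gpx3 and Gstm1) and 2 lower (Slc7a11 and Trf), against 2.48% and 2.38% of all genes. Gpx3, a secreted glutathione peroxidase, changed by 1.01 (adjusted p = 0.167), with day 4 replicate 2 at 15.7 CPM far above the other day 4 mice at 5.87 and 7.70 CPM, and was not called without that library (0.64) or without control replicate 1 (0.91). The number called higher was 2 without control replicate 1 or day 4 replicate 2 and 3 without control replicate 2 or day 4 replicate 7. Of 34 sterol synthesis genes 3 were called lower (Lss, Hsd17b7 and Npc1), and none were without control replicate 1 or day 4 replicate 2. By limma none of the 18 cell cycle, 30 unfolded protein response or 23 heat and cold shock genes was called, with 1, 2 and 3 of them at an unadjusted p below 0.05, and an unmoderated F test called none as well.

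Ribosomal protein and respiratory chain genes moved together by small amounts. Of 79 tested cytosolic ribosomal protein genes 73 lay above 0, with a median of 0.16. Over all genes 60.1% lay above 0, with a median of 0.04. The family summed to 5811 to 6706 CPM in controls and 6854 to 7330 CPM on day 4. Of the 79 genes, 5 were called higher, namely Rpl13a, Rpl14, Rpl36, Rps12l1 and Rps21, between 0.25 and 0.43, against 2.48% of all genes. Of 37 Nduf genes of complex I, 35 lay above 0 with a median of 0.17, and none was called by limma, 11 being at an unadjusted p below 0.05. These are short transcripts. After the correction for transcript length the medians were 0.05 for both families, with 48 of 79 and 23 of 37 genes above 0 and none called. The number of called ribosomal protein genes was between 0 (without day 4 replicate 4) and 9 (without control replicate 3).

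Compared with old females on day 1, whose libraries were 4 other mice, day 4 had 1616 genes called higher (13.8%) and 1089 called lower (9.3%). Without day 4 replicate 4 there were 1797 called in all. Glucocorticoid genes were lower on day 4 than on day 1, with 16 of the 18 response genes and 13 of the 18 further targets called lower and none called higher. The 18 response genes had been chosen for being high in these day 1 libraries among others, so their fall is a description and no independent evidence. Plin4 had averaged 123 ± 36.8 CPM on day 1 (SD, n = 4) and 27.1 ± 1.88 CPM on day 4 (SD, n = 3), a log2 difference of -2.09 (adjusted p = 6.71e-05), against 4.79 ± 0.84 CPM in controls (SD, n = 4). Mt1 had averaged 490 ± 36.1 CPM (SD, n = 4) on day 1 and 204 ± 17.3 CPM on day 4. Of the 47 oligodendrocyte genes 27 were higher on day 4 than on day 1 and 4 lower, and 22 of the 27 neurogenesis genes were higher and none lower, the latter being genes chosen for low levels on day 1. Ugt8a was at 4.31 ± 0.62 CPM on day 1 (SD, n = 4) and 23.2 ± 1.11 CPM on day 4 (SD, n = 3), the largest increase of any gene averaging 20 CPM or more (2.19, adjusted p = 4.35e-06).

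Some genes did not lie between their control and day 1 levels. Klk6 was lower on day 4 than on day 1, when it had averaged 4.92 ± 1.37 CPM (SD, n = 4), by 1.08 on the log2 scale (adjusted p = 0.00355). C4b had averaged 342 ± 64.6 CPM on day 1 and 172 ± 37.2 CPM on day 4, a difference of -0.99. Ly6c1 was at 19.1 CPM on average on day 1, near its controls at 17.8 ± 1.78 CPM (SD, n = 4), and at 28.4 ± 3.06 CPM on day 4 (SD, n = 3). Nr3c1, by contrast, lay between, with a log2 difference from controls of -0.53 on day 1 and -0.42 on day 4, values that share the control mice. Among genes with the largest differences between the days were also the precursor gene Gpr17 (2.0) and the microglial gene Olfml3 (2.04), higher on day 4, and Akap12 (-2.09), Apod (-1.96), Mt2 (-1.61) and Serpina3n (-1.58), lower on day 4. None of Gpr17, Olfml3, Akap12, Apod and Serpina3n was called against controls on day 4.

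The same change was set against that of young females on day 4 (4 mice, with 4 young female controls) by an interaction of age and sepsis. By limma 46 genes were called (0.393%), where 117 would pass by chance. Of the 46, 22 changed more upward and 24 more downward in old than in young females. No gene had an adjusted p below 0.05, the lowest being 0.735, while 376 had an unadjusted p below 0.05. An unmoderated F test gave 63 and all 47 libraries in 1 fit 83, neither with any at the adjusted p. Leaving out young female control replicate 1 gave 148 genes and replicate 3 of the same group 98. Leaving out young female day 4 replicate 3 gave 82, and old female day 4 replicate 4 gave 22. For Plin4 the log2 fold change was 1.99 in young females, for Fkbp5 0.48, for Sgk1 0.64, for Hif3a 0.59 and for Ly6c1 0.62. Klk6 changed by -0.38 in young females against -1.69 in old females, Ugt8a by -0.28 against -0.64 and Opalin by -0.65 against -0.59. The median of the oligodendrocyte list was -0.18 in young females, and that of the glucocorticoid-response list 0.28. Serpina3n, an acute-phase gene of reactive astrocytes, changed by -0.13 in old and 0.58 in young females, a difference of -0.71 that did not pass the adjustment (adjusted p = 0.973).

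The interaction of sex and sepsis in old mice on day 4 called many more genes, 1172 with a higher change in old females (10%) and 575 with a lower change (4.91%), and 1304 passed at the adjusted p. Of the glucocorticoid genes, 3 of 18 response genes and 4 of 18 further targets had a lower change in old females, against 4.91% of all genes. The other members were not called. The medians of these 2 lists were 0.38 and 0.29 in old females and 0.62 and 0.65 in old males. Of the 30 genes of microglial activation and complement, 20 had a lower change in old females and 1 a higher change, and their medians were -0.20 in old females and 0.52 in old males. C4b differed by -1.63 (adjusted p = 0.000346), old males being at 0.87. Its controls already differed, averaging 291 CPM in old females and 169 CPM in old males. The day 4 mice averaged 172 CPM in old females and 313 CPM in old males. Klk6 differed by -1.40 (adjusted p = 0.0193) and Trf by -0.86 (adjusted p = 0.00735). Of 15 mitochondrially encoded genes 13 had a higher change in old females, and their median was -0.85 in old males and -0.01 in old females. Gm42418, which the antisense CT010467.1 covers by 99.5%, ranged from 11551 to 12727 CPM on day 4 and from 13842 to 22411 CPM in control old females, and changed by -0.59 in old females and 0.79 in old males. The part of these RNA classes in the sex difference was not tested. After correction for GC content the sex difference was called for 366 higher and 390 lower genes, with 45 at the adjusted p, and the share called higher went from 67.1% to 48.4%. It was called for 1098 genes without old female day 4 replicate 7 and for 2776 without old female control replicate 2.

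**Figure D4:**
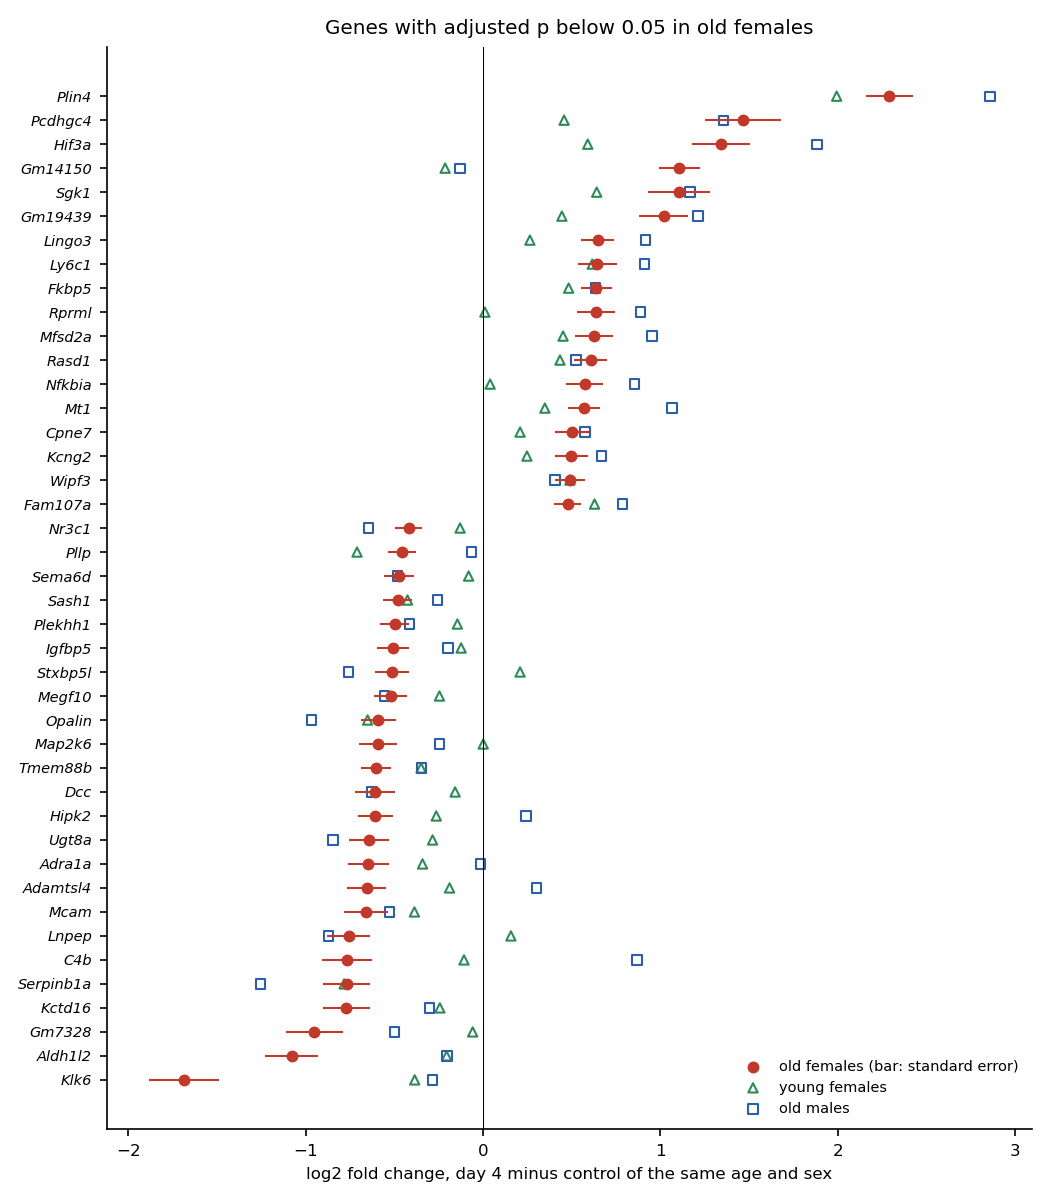
Log2 fold change, day 4 minus control of the same age and sex, of the 42 genes with an adjusted p below 0.05 in old females, with the standard error in old females as a bar, and the values of young females (triangles) and old males (squares). The genes were chosen on the old female values; Plin4 is the highest in all 3 groups, and C4b is below 0 in old females and above 0 in old males.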

How the data were processed

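Poly(A) RNA of whole hippocampi was sequenced on the Ion Proton, 1 library per mouse, in 47 libraries of 12 groups, which were read from the deposited sample labels. According to the paper and the submitters' processing notes, the authors aligned reads to mm10 with STAR, counted them in Partek Flow and scaled them by TMM, a trimmed mean of log ratios. The authors deposited the result as CPM for 28032 genes, matched here by column name, with 0 columns left without a sample. The annotation, the strand setting and the tool versions are not given in the sources used here. Since 81.7 to 82.9% of values came out as whole reads (within 0.05 reads), reads were not recovered and no count model was run, and precision is set by 4 and 3 mice.

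Genes averaging 5 CPM or more over the 7 libraries were tested on log2(CPM + 1), so fold changes of low genes are understated. Old females on day 4 and controls were fitted alone by limma 3.58.1 (R 4.3.3, trended moderated test, two-sided), with calls at an unadjusted p below 0.01 as in the study and Benjamini-Hochberg adjusted p over all genes. Interactions with age and sex and day 4 against day 1 were fitted the same way over their own groups. The test was checked on simulated data. Alternatives were other pseudocounts, filters and scalings, an unmoderated F test, all 47 libraries, corrections for GC content and transcript length, a replicate block and each library left out. Gene positions and overlaps came from GENCODE vM21 (GRCm38), promoters from RefSeq. Named genes were those with an adjusted p below 0.05, the 12 largest non-overlapping changes in each direction and the 4 largest interaction or day differences in each direction, both averaging 20 CPM or more, genes the study names for day 4, and members of the gene lists. The members, the lists and the tests were chosen with earlier results of these data known, and lists are described by counts and medians with no set test. A few members of the lists are not reported here.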

Additional observations from a re-analysis of the deposited data

Results flagged for a closer look

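In 8 of 138 called genes a control library lay apart from the other 3 by Dixon's test (5.8%, where chance gives about 5%). Control replicate 3 was the highest for Ddit4l (12.7 CPM, others 10.1 to 10.5), Gfap (775 CPM, others 581 to 611) and Pllp (44.8 CPM, others 40.4 to 41.1). Control replicate 4 was the highest for Rasd1 (38.4 CPM, others 30.7 to 31.9) and Tnfrsf25 (8.62 CPM, others 5.94 to 6.32) and the lowest for Ctss (51.5 CPM, others 63.4 to 65.6) and Megf10 (23.1 CPM, others 26.2 to 26.7). Control replicate 1 was the highest for Lnpep (23.5 CPM, others 17.3 to 17.4). Groups of 3, such as the day 4 mice, were not examined in this way.

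For old against young females, the 4 largest differences in each direction are given among genes called by limma at an unadjusted p below 0.01. These genes averaged 20 CPM or more. The change was higher in old females for Atpif1 (difference 0.74), Gm11273 (0.76), Ide (0.78) and Nnat (0.74). It was lower for Bhlhe41 (-0.51), Ctss (-0.61), Erbin (-0.60) and Serpina3n (-0.71). All 8 had an adjusted p of 0.973. The named gene Aldh1l2, averaging 5.35 CPM, was also called in this test (-0.87, adjusted p = 0.973). Ctss changed by -0.34 in old and 0.27 in young females, and Ide by 0.15 and -0.63.

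Between old females and old males the change was lower in females for Adamts4 (-0.57, adjusted p = 0.0371), Adamtsl4 (-0.96, adjusted p = 0.00735), Aldh1l2 (-0.88, adjusted p = 0.0378), C4b (-1.63, adjusted p = 0.000346), Hipk2 (-0.85, adjusted p = 0.0428), Klk6 (-1.40, adjusted p = 0.0193) and Trf (-0.86, adjusted p = 0.00735). It was also lower for the non-coding genes Gm26917 (-1.73, adjusted p = 0.0193), Gm42418 (-1.38, adjusted p = 0.0249), Rn7s1 (-2.91, adjusted p = 0.0588) and Rn7s2 (-3.01, adjusted p = 0.038), of which Rn7s1 and Rn7s2 share reads. The change was higher in females for Ide (1.44, adjusted p = 0.000212), Rasgrp3 (0.52, adjusted p = 0.0455), mt-Atp8 (1.44, adjusted p = 0.0223) and the uncertain Gm14150 (1.24, adjusted p = 0.0186), Gm8430 (1.67, adjusted p = 0.0183) and Gm9844 (1.12, adjusted p = 0.0473). Ide changed by 0.15 in old females and -1.29 in old males.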

How the results depend on the processing

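Main counts against controls were 290 genes higher, 278 lower and 42 at the adjusted p. They became 115, 82 and 11 at a mean of at least 50 CPM, where fewer genes were tested, and 192, 143 and 7 with all 47 libraries in 1 fit. With median-of-ratios scaling there were 189 higher and 383 lower, with the GC correction 265 higher, 547 lower and 144 at the adjusted p, and with transcript length corrected (an alternative added once the data had been seen) 141 higher and 269 lower. Without the filter on low values 1 gene passed at the adjusted p, with the unmoderated F test 0 (469 called, 1590 at an unadjusted p below 0.05) and without old female controls 1 and 2, added at the same stage, 6. Leaving out each library in turn gave 75 to 367 higher, 133 to 379 lower and 2 to 75 at the adjusted p. The cause of these moves was not tested. The median over all genes was 0.039 and became 0.007 with the median of ratios, and no named gene changed direction under any alternative.

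The age difference (46 genes) became 227 without the filter, 6 at a mean of at least 50 CPM, 83 with all 47 libraries, 26 without controls 1 and 2, and 22 to 148 without single libraries. The sex difference (1747) became 612 at a mean of at least 50 CPM, 756 after the GC correction, 3072 without controls 1 and 2, and 1098 to 2776 without single libraries. Its share called higher was 67.1% and became 49.9% with the median of ratios and 49.3% with the length correction. Day 4 against day 1 (2705) became 818 at a mean of at least 50 CPM and 1797 to 2713 without single libraries, and its share called higher went from 59.7% to 50.2% with the median of ratios, 48.3% with the GC correction and 50.3% with the length correction.

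Control and day 4 mice share replicate numbers 2 and 4. Deviations from the group means correlated at -0.12 for number 2 and 0.298 for number 4, and no label ties a number to a litter or day, so the mice share only a number. With the replicate block the counts were 125 higher, 62 lower and 7 at the adjusted p, and 24, 1015 and 1742 for the age, sex and day tests. In this fit 80 of 162 tests of named genes were no longer called.

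Of the 138 named genes called against controls, 73 were called in every fit that left out 1 library and 39 under every alternative, as were 42 and 32 of the 42 genes at the adjusted p. With 3 day 4 mice, all survivors, a missed call does not show that a gene was at its control level.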

Other observations

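Several genes of blood cells lay below the filter on low values and were not tested; they are named after their values were seen. S100a8 and S100a9, calcium-binding proteins abundant in neutrophils, were at 0.0376, 0.117, 0 and 0 CPM and at 0.0753, 0.0391, 0.299 and 0.0375 CPM in control replicates 1 to 4. On day 4 replicates 2, 4 and 7 had 0.248, 0.866 and 0.944 CPM of S100a8 and 0.956, 1.54 and 4.11 CPM of S100a9. Day 4 lay above all controls for both, and a single read is worth 0.0354 to 0.0427 CPM. Ngp, another neutrophil gene, was at 0 to 0.128 CPM in controls and 0.106, 1.05 and 0.83 CPM on day 4, with overlap. Lcn2, an iron-scavenging protein of neutrophils, endothelium and reactive astrocytes, was at 0.79 to 1.01 CPM in controls and 6.59, 2.07 and 4.53 CPM on day 4. Haemoglobin did not follow the same order, since Hbb-bs was at 408, 122 and 15.5 CPM in these mice. Ptprc, the common leukocyte antigen that microglia also express, was at 3.21 to 4.96 CPM in controls and 2.83, 2.41 and 1.96 CPM on day 4, and the T cell gene Cd3e was at 0.0427 to 0.152 CPM in controls and listed at 0 in all 3 day 4 libraries.

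Gm48159, annotated antisense to Rspo3 with 36.3% of its exon bases overlapping, had the largest log2 value of any gene (3.62, adjusted p = 0.167). It was listed at 0, 0, 0 and 0.0375 CPM in controls and at 0, 42.5 and 43.0 CPM in day 4 replicates 2, 4 and 7, so 2 mice carried the whole difference.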
